A study of Homo sapiens with 6 samples.

Results

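The 38 genes described here carry a cell from the end of G2 through mitosis. They encode the cyclins, phosphatases and transcription factor of mitotic entry, the mitotic kinases, the spindle assembly checkpoint, proteins of the centromere and kinetochore, proteins of the spindle and of the condensed chromosome, and regulators of mitotic exit. Their probe sets were found by gene symbol, and the list of genes was drawn up with earlier results of these data known. All 38 had a probe set with a single gene symbol, among 19775 such genes on the array. All 38 also had a mean level at or above the minimum of 4.42 log2 units that 12012 genes reached, so none was left out of the tests.

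RNA was measured on Affymetrix U133 Plus arrays in Namalwa, Raji and Ramos, established cell lines of Burkitt lymphoma, a fast-growing B-cell lymphoma with a MYC translocation. Each of the 3 lines gave 1 array labelled empty and 1 labelled miR26a. The transfected lines were given doxycycline at 0.5 µg/ml for 72 h to induce the microRNA, and that treatment is listed for the empty samples too. What the empty construct holds, and the number of clones or cultures per line, is not given in the sources used here, so p-values measure only the spread between these 6 samples. The microRNA is supplied from outside the cell's own genes, and its own level was not analysed here. Every value below is a log2 level normalised by the authors with RMA, which gives all arrays the same distribution, so a shift of all RNAs in 1 direction would not be seen. In RNA from whole cultures, fewer cells in G2 or mitosis and less RNA per such cell cannot be told apart.

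Array medians lay between 4.36 and 4.44. All 9 B-cell marker genes with a probe set were above the level minimum on every array. Of 8 T- and NK-cell markers 1 was above it on every array (CD3E, at most 4.97), and of 6 monocyte markers at most 1 (CSF1R, at most 4.97). Of 5 fibroblast markers 2 or 3 were above it, with COL1A1 highest at 6.53 to 7.15, and 1 or 2 of 2 red cell markers, with HBB highest at 4.76 to 5.83. The Namalwa empty array stood apart in an RNA quality measure: the 3′ signal of its ACTB controls exceeded the 5′ signal by 3.58 log2 units, where the remaining arrays gave 1.80 to 1.98. EZH2, the Polycomb methyltransferase named in the study's title, was lower by 0.56 (SE 0.12) on average with miR26a, with an adjusted p of 0.106 by limma.

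Most of these genes are switched on late in the cell cycle. In resting and early cycling cells the DREAM complex holds their promoters silent through its MuvB core, and in G2 the same core joins B-MYB and FOXM1 to activate them. MuvB binds the cell cycle homology element, whose common form reads TTTGAA, and many such promoters also carry boxes with the letters CCAAT bound by the activator NF-Y. A microRNA acts in another way: its seed pairs with sites in target messengers and lowers their stability and translation. The mature miR-26a-5p that the group is named for is shown first because its seed, in capitals, sets which messengers it can pair with, and its sister miR-26b-5p shares that seed (bases 2 to 8 from the 5′ end, UCAAGUA). The RefSeq table of GRCh38.p14 places miR-26a-5p at chr3:37969413-37969434 on the plus strand (MIR26A1) and at chr12:57824658-57824679 on the minus strand (MIR26A2). It places miR-26b-5p at chr2:218402657-218402677 on the plus strand (MIR26B). Whether any member's messenger holds a site for this seed was not analysed here.
hsa-miR-26a-5p: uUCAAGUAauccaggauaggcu
hsa-miR-26b-5p: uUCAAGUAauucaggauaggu

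Promoter windows from RefSeq (GRCh38.p14), each running from 250 bases before a transcription start to 50 bases after it, were matched by symbol for 30 of the 38 genes and gave 41 windows. Those not matched were AURKA, BIRC5, BUB3, FOXM1, PBK, TPX2, TTK and UBE2C. On either strand, the letters TTTGAA were found in a window of 21 of the 30 genes (70.0%), against 18.2% of 27305 genes with a window of 300 bases. The letters CCAAT were found for 25 of the 30 (83.3%), against 39.7% of all genes. Both were found for 17 of the 30 (56.7%), against 7.26% of all genes. A match describes the letters and is not a measured binding site. Below are the 120 bases that end just before the start of transcription of 7 genes with both motifs. CCNB2, CKS1B and PLK1 show the element about 30 bases before the start with a box upstream of it, MKI67 and HMMR show a repeated element, CDC20 shows an element farther upstream, and CDC25C is shown because its RNA did not move alike in the 3 lines. Capitals mark the 2 motifs on either strand, so the box reads as its complement where it lies on the other strand, and a longer run in capitals holds motifs that overlap or touch.
CCNB2 promoter, chr15:59105026-59105145, plus strand: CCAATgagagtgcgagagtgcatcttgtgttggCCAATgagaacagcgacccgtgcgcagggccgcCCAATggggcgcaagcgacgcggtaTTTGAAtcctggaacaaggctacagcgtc
CKS1B promoter, chr1:154974561-154974680, plus strand: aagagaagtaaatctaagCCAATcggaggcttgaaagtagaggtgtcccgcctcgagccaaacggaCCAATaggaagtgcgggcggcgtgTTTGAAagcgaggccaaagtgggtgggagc
PLK1 promoter, chr16:23678769-23678888, plus strand: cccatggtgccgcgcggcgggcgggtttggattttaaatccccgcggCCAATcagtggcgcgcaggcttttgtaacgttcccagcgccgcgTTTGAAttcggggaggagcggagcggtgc
MKI67 promoter, chr10:128126424-128126543, minus strand: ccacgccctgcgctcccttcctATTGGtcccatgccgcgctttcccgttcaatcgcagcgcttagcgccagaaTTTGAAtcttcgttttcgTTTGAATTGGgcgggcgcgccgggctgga
HMMR promoter, chr5:163460512-163460631, plus strand: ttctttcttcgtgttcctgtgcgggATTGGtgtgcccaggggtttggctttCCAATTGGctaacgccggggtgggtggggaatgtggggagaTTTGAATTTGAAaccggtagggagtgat
CDC20 promoter, chr1:43358861-43358980, plus strand: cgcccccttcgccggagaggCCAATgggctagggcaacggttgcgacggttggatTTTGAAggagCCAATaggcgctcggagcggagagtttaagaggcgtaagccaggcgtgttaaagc
CDC25C promoter, chr5:138331805-138331924, minus strand: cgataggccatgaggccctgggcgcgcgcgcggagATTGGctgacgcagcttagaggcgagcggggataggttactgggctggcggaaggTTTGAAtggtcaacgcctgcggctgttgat

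In these 7 windows the first base of the element nearest the start lay at -29 (CCNB2), -30 (CKS1B), -29 (PLK1), -29 (MKI67), -22 (HMMR), -65 (CDC20) and -30 (CDC25C). The nearest box upstream of it began 25, 24, 44, 69, 44, 35 and 55 bases before it, in the same order. The motifs of all members with at least 1 are drawn in the map of promoter windows.

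**Figure D1:**
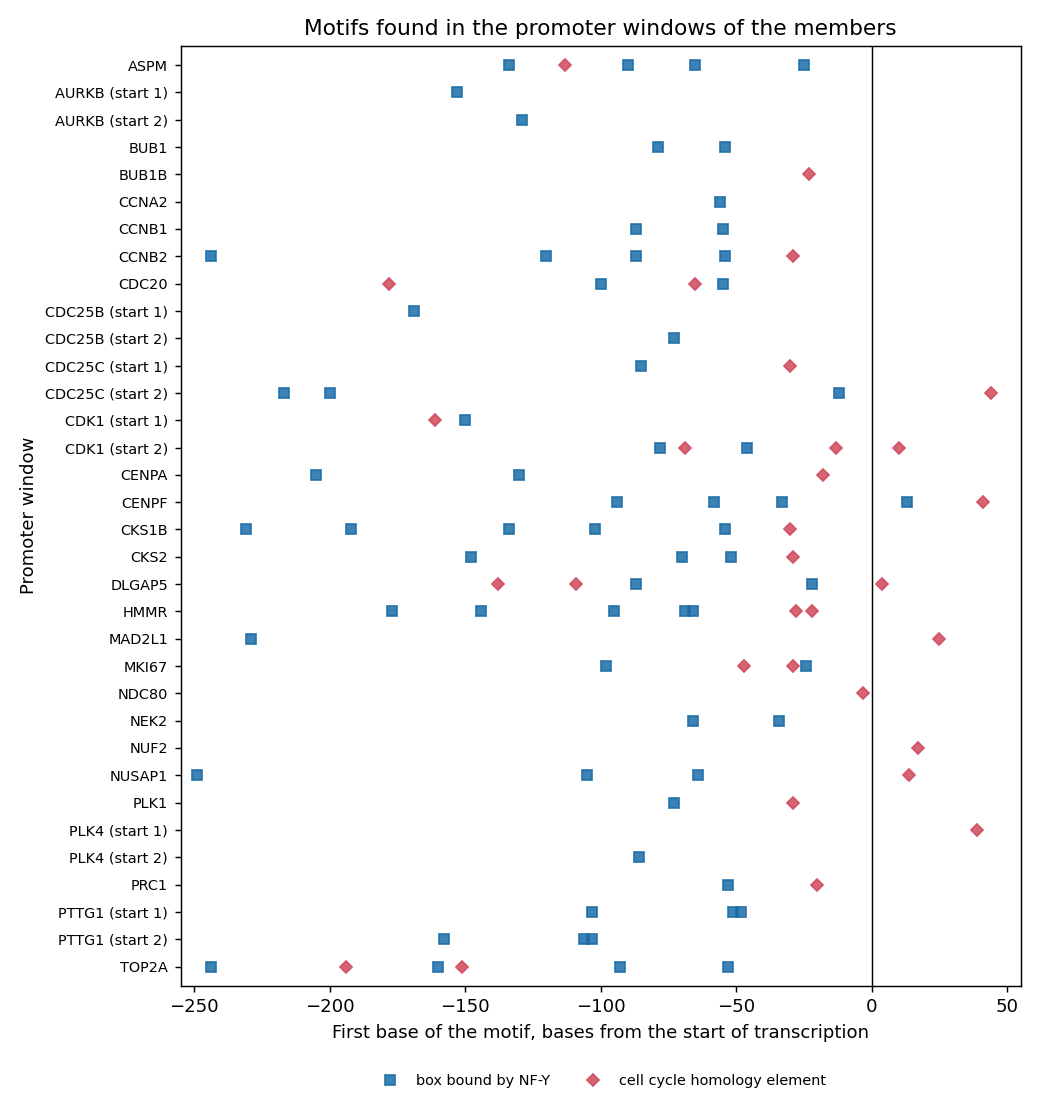
Position of each motif in the promoter windows of the members, in bases from the start of transcription (vertical line), for every window that held at least 1 motif. Squares, labelled as the box bound by NF-Y, are matches to the letters CCAAT on either strand. Diamonds, labelled as the cell cycle homology element, are matches to TTTGAA. No binding was measured. The diamonds of CCNB2, PLK1 and MKI67 lie at -29; 21 of 30 matched genes had an element and 25 a box, and a gene with several starts has several rows.

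With miR26a, the mitotic genes were lower in nearly every line. Of all genes tested 19.6% were lower in all 3 lines, and 1871 of 12012 were higher in all 3. Of the 38 genes 34 were lower in all 3 lines and none was higher in all 3. Their median change was -0.38 log2, which leaves 76.6% of the empty level, against -0.01 for all genes. By line the median was -0.35 (Namalwa), -0.39 (Raji) and -0.37 (Ramos). The changes were modest: 27 of the 38 were lower by more than 0.3, and they ran from -0.57 for NUF2 to -0.04 for CDC25B. For 17 genes the 3 miR26a arrays were all below the 3 empty arrays, against 2.91% of all genes.

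No gene of the array, member or not, passed an adjusted p of 0.05 by limma with the line as a block (0 of 12012 genes, 0%). At an unadjusted p under 0.05, 30 members were lower and 0 higher, against 7.33% of all genes lower and 5.56% higher. At an adjusted p under 0.1 there were 5 members, MELK, BUB1, NUF2, DLGAP5 and MKI67, against 0.658% of all genes. Without the Namalwa pair, which holds the array with the high ACTB difference, 37 members were lower in both other lines, against 30.3% of all genes. Their median was then -0.39. Without the Raji pair 203 genes passed by limma (1.69% of all genes), 3 of them members: MELK (adjusted p = 0.0364), TTK (0.0369) and NUF2 (0.0192).

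**Figure D2:**
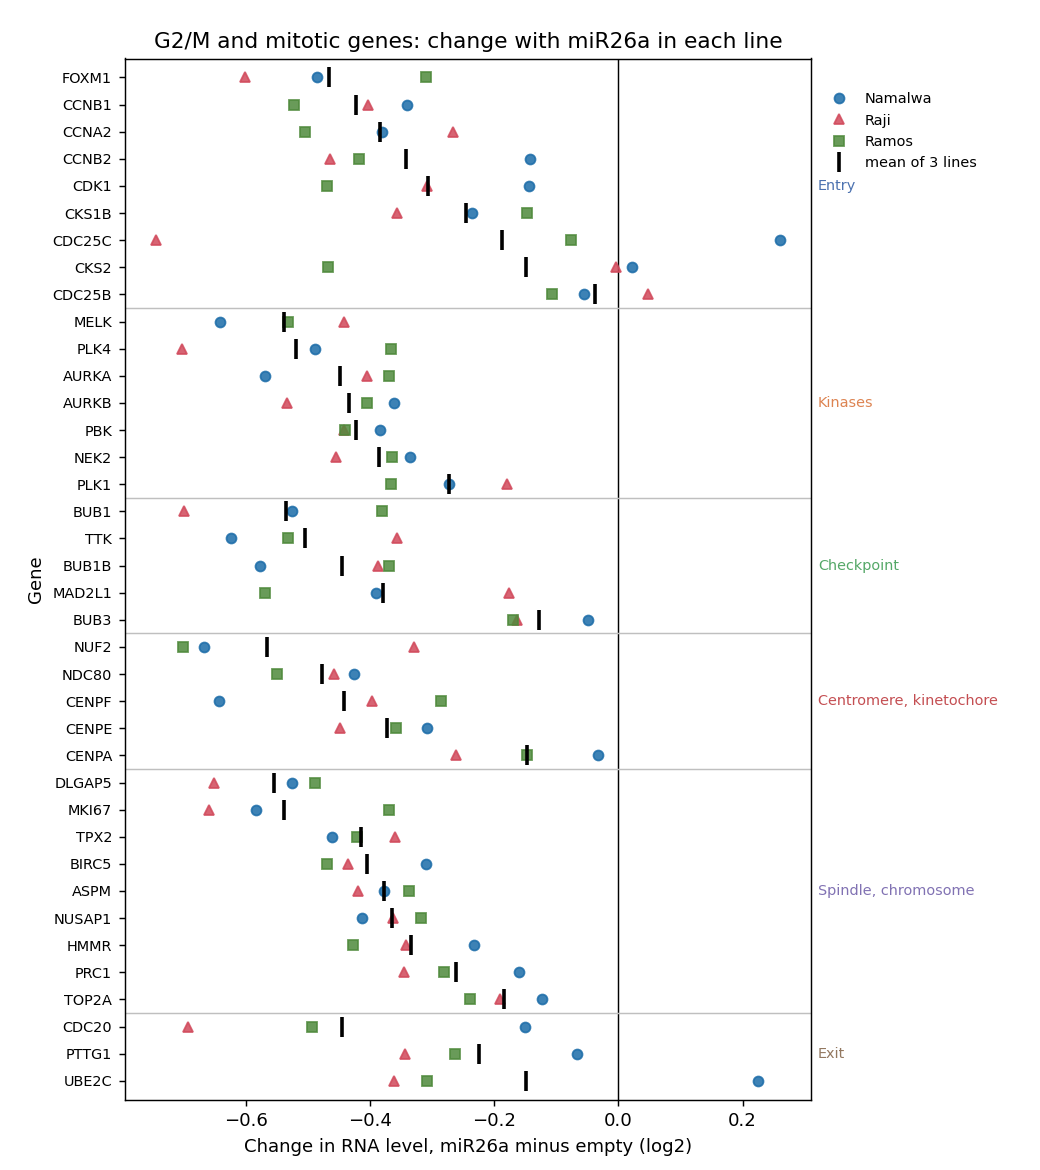
Change in RNA level (log2, miR26a minus empty) of each of the 38 genes in Namalwa (circles), Raji (triangles) and Ramos (squares), with the mean of the 3 lines as a vertical tick, ordered by class. The points lie left of 0 in all 3 lines for 34 genes; CDC25C, CKS2, CDC25B and UBE2C have at least 1 point right of 0.

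Mitotic entry is driven by CDK1 with its cyclins, released by the CDC25 phosphatases and prepared by the transcription factor FOXM1. Of the 9 entry genes 6 were lower in all 3 lines, and the same number had an unadjusted p under 0.05. FOXM1 was at 7.03, 7.17 and 6.65 on the empty arrays of Namalwa, Raji and Ramos, and at 6.54, 6.57 and 6.34 on their miR26a arrays. All miR26a values lay below all empty values. The group means were 6.95 ± 0.27 and 6.48 ± 0.12 (SD, n = 3 each), a change of -0.47 (SE 0.11) with an adjusted p of 0.128 by limma. Its probe set is of a type that may also bind related messengers. CCNB1, the cyclin B that carries CDK1 into mitosis, was at 9.63, 8.78 and 9.49 on the empty arrays and at 9.29, 8.37 and 8.97 on the miR26a arrays. The groups overlapped because Raji was low in both, while each line was lower with miR26a. Its change was -0.42 (SE 0.10, adjusted p = 0.130 by limma). CCNA2 had a mean change of -0.38, CCNB2 of -0.34 and CDK1 itself of -0.31, each with groups that did not overlap. CCNB2 stood at -0.19 with the mean of all its probe sets. That mean takes in a probe set below the level minimum (3.04), and the other one above it gave -0.35. CKS1B, a small CDK-binding subunit, was lower in each line too, by 0.25 on average. None of these passed after adjustment.

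The 3 entry genes that did not move alike were CDC25B, CDC25C and CKS2, a paralog of CKS1B. CDC25B had a mean change of -0.04, with 7.45, 8.26 and 7.54 on the empty arrays and 7.39, 8.31 and 7.43 on the miR26a arrays, and its mean was -0.082 without the Raji pair and -0.0040 without the Ramos pair. CDC25C, the phosphatase that switches on CDK1, was at 5.30, 6.12 and 5.39 on the empty arrays and at 5.56, 5.37 and 5.32 on the miR26a arrays. It was lower by 0.75 in Raji, at -0.076 in Ramos and higher by 0.26 in Namalwa. Its mean change of -0.19 was 0.092 without the Raji pair and -0.41 without the Namalwa pair. CKS2 was at 11.38, 11.23 and 11.52 on the empty arrays and at 11.40, 11.22 and 11.06 on the miR26a arrays. Only the Ramos pair of CKS2 differed by more than 0.1, and its mean change of -0.15 was 0.0094 without it and -0.24 without the Namalwa pair. The line medians of the entry class were -0.14 (Namalwa), -0.36 (Raji) and -0.42 (Ramos), where the smaller Namalwa value comes from the pair whose empty array had the high ACTB difference. The part of that array in the value was not tested.

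On their chosen probe sets the mitotic kinases were lower without exception: all 7 were lower in all 3 lines and all 7 had an unadjusted p under 0.05. MELK, a kinase of dividing and embryonic cells, was at 8.65, 8.33 and 8.74 on the empty arrays of Namalwa, Raji and Ramos and at 8.01, 7.88 and 8.21 on the miR26a arrays. No miR26a array reached the lowest empty array. The change was -0.54 (SE 0.10), with 68.8% of the level left and an adjusted p of 0.0826 by limma. PLK4, which starts the duplication of centrioles, was at 7.95, 7.37 and 7.53 on the empty arrays and at 7.46, 6.67 and 7.16 on the miR26a arrays. Its groups overlapped through Namalwa, the line with the highest level, and its change was -0.52 (SE 0.11, adjusted p = 0.106 by limma). AURKA, the centrosomal Aurora kinase, had a mean change of -0.45 and AURKB, the Aurora kinase of the chromosomal passenger complex, of -0.43. The plain probe set of AURKA, at a mean of 4.90 near the level minimum, gave -0.25, and its remaining one (8.11) gave -0.28. NEK2, a kinase of centrosome separation, had a mean change of -0.39, PBK, a MAPKK-like kinase of mitotic cells, of -0.42 and PLK1, the Polo-like kinase of entry and spindle assembly, of -0.27. Some other probe sets were higher with miR26a in 1 line. The plain one of AURKA was higher in Raji, by 0.13. The other one of AURKB had a mean change of -0.34, with 0.087 in Namalwa. That of NEK2 had a mean change of -0.22, with 0.24 in Namalwa. The remaining one of AURKA and that of PLK4 at 6.45 were lower in all 3 lines. The class median was -0.43, and its line medians were -0.38, -0.44 and -0.37.

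The spindle assembly checkpoint holds anaphase back until every kinetochore is attached. On their chosen probe sets all 5 of its members here were lower in each line, and 4 had an unadjusted p under 0.05. BUB1, the checkpoint kinase at kinetochores, was at 8.72, 8.63 and 8.54 on the empty arrays and at 8.20, 7.93 and 8.16 on the miR26a arrays. The 3 empty values lay close together and above all miR26a values. Its change was -0.54 (SE 0.11, adjusted p = 0.0981 by limma), and -0.33 with the mean of all its probe sets. That mean takes in probe sets below the level minimum (3.68 and 2.46), and the others above it gave -0.45 and -0.28. TTK, the kinase that starts checkpoint signalling, was at 8.60, 8.37 and 8.67 on the empty arrays and at 7.98, 8.01 and 8.14 on the miR26a arrays. Its groups did not overlap either, and the change was -0.50 (SE 0.10, adjusted p = 0.106 by limma). BUB1B, a part of the inhibitor that the checkpoint makes, had a mean change of -0.44, and MAD2L1, another part, of -0.38. BUB3, which brings BUB1 and BUB1B to the kinetochore, had a mean change of only -0.13 (adjusted p = 0.646 by limma). Its 4 other probe sets above the level minimum had mean changes of -0.16, -0.15, 0.032 and 0.057. In Raji all 4 were higher with miR26a, by 0.022, 0.13, 0.11 and 0.12 in the same order. Those at -0.16 and -0.15 were lower in Namalwa and Ramos. The chosen probe set of BUB3 is of the type that may bind related messengers. The line medians of the class were -0.53 (Namalwa), -0.36 (Raji) and -0.38 (Ramos). Here the larger Namalwa value comes from the pair whose empty array had the high ACTB difference, and its part was not tested.

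At the centromere and kinetochore, all 5 genes were lower in each line and 4 had an unadjusted p under 0.05. NUF2 and NDC80 form the rod with which the kinetochore grips microtubules. NUF2 was at 9.50, 7.99 and 9.46 on the empty arrays of Namalwa, Raji and Ramos and at 8.84, 7.67 and 8.76 on the miR26a arrays. Raji was low on both of its arrays, so the groups overlapped, and the difference within a line was smallest in Raji. With a change of -0.57 (SE 0.11), NUF2 kept 67.6% of its level (adjusted p = 0.0970 by limma). NDC80 was at 8.54, 8.02 and 8.53 on the empty arrays and at 8.12, 7.56 and 7.98 on the miR26a arrays, and showed the same order of lines. Its change was -0.48 (SE 0.10, adjusted p = 0.106 by limma). CENPF, a large protein of the outer kinetochore, had a mean change of -0.44, and CENPE, the kinetochore kinesin, of -0.37. CENPA, the histone H3 variant that marks the centromere, had a mean change of -0.15 (adjusted p = 0.599 by limma), although its miR26a arrays all lay, by a narrow margin, below its empty arrays. Its chosen probe set is again of the type that may bind related messengers, and the mean change was -0.090 without the Raji pair.

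Among the 9 genes of the spindle and the condensed chromosome, all were lower in each line and 8 had an unadjusted p under 0.05. DLGAP5, which stabilises spindle microtubules near chromosomes, was at 8.71, 8.44 and 7.35 on the empty arrays and at 8.19, 7.79 and 6.86 on the miR26a arrays. Ramos was low on both, so the groups overlapped. Its change was -0.56 (SE 0.10), and its adjusted p of 0.0786 by limma was the smallest of the members. MKI67, the Ki-67 antigen that coats mitotic chromosomes and is the usual proliferation marker, was at 9.18, 9.27 and 8.65 on the empty arrays and at 8.60, 8.61 and 8.28 on the miR26a arrays. The lowest empty array, that of Ramos, was just above the highest miR26a array. The change was -0.54 (SE 0.11, adjusted p = 0.0931 by limma), and the 3 other probe sets of MKI67 had mean changes of -0.35, -0.32 and -0.36. TPX2, which activates AURKA on spindles, had a mean change of -0.41 and BIRC5, the survivin of the passenger complex, of -0.41. The other probe sets of BIRC5 had mean changes of -0.60, -0.62 and -0.082, the last with 0.38 in Namalwa. ASPM, a spindle pole protein, had a mean change of -0.38, NUSAP1, a microtubule bundler, of -0.36 and HMMR, a spindle and hyaluronan-binding protein, of -0.33. The other probe sets of ASPM had mean changes of -0.0060 and -0.14, both higher with miR26a in Namalwa, and the mean of all 3 was -0.17. The other probe set of NUSAP1 had a mean change of 0.036, with 0.69 in Namalwa, and the mean of both was -0.16. PRC1, the bundler of the central spindle, had a mean change of -0.26 and TOP2A, the topoisomerase that untangles sister chromatids, of -0.18. The 2 other probe sets of TOP2A had mean changes of -0.27 and -0.38.

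Mitotic exit begins when the anaphase-promoting complex, with its activator CDC20 and its ubiquitin-conjugating enzyme UBE2C, destroys securin (PTTG1) and cyclin B. These 3 genes split. CDC20 was at 8.89, 9.09 and 9.23 on the empty arrays and at 8.74, 8.39 and 8.74 on the miR26a arrays. Its groups did not overlap, but the difference was only -0.15 in Namalwa against -0.69 in Raji and -0.49 in Ramos. The mean change was -0.45 (SE 0.12, adjusted p = 0.167 by limma). PTTG1 was at 10.04, 11.27 and 9.38 on the empty arrays and at 9.97, 10.93 and 9.12 on the miR26a arrays, and differed between lines far more than between groups. Its change was -0.22 (SE 0.11, adjusted p = 0.419 by limma). PTTG1 has near-identical copies in the genome and a probe set of the type that may bind them, so its level is uncertain. UBE2C was at 8.82, 9.50 and 9.33 on the empty arrays and at 9.04, 9.13 and 9.02 on the miR26a arrays, so it was higher with miR26a in Namalwa and lower in the other two. Its change was -0.15 (SE 0.13, adjusted p = 0.694 by limma), and it was -0.34 without the Namalwa pair, -0.042 without the Raji pair and -0.069 without the Ramos pair. For all 3 exit genes the highest of the line changes was that of Namalwa, the pair with the high ACTB difference on its empty array, whose part was not tested.

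**Figure D3:**
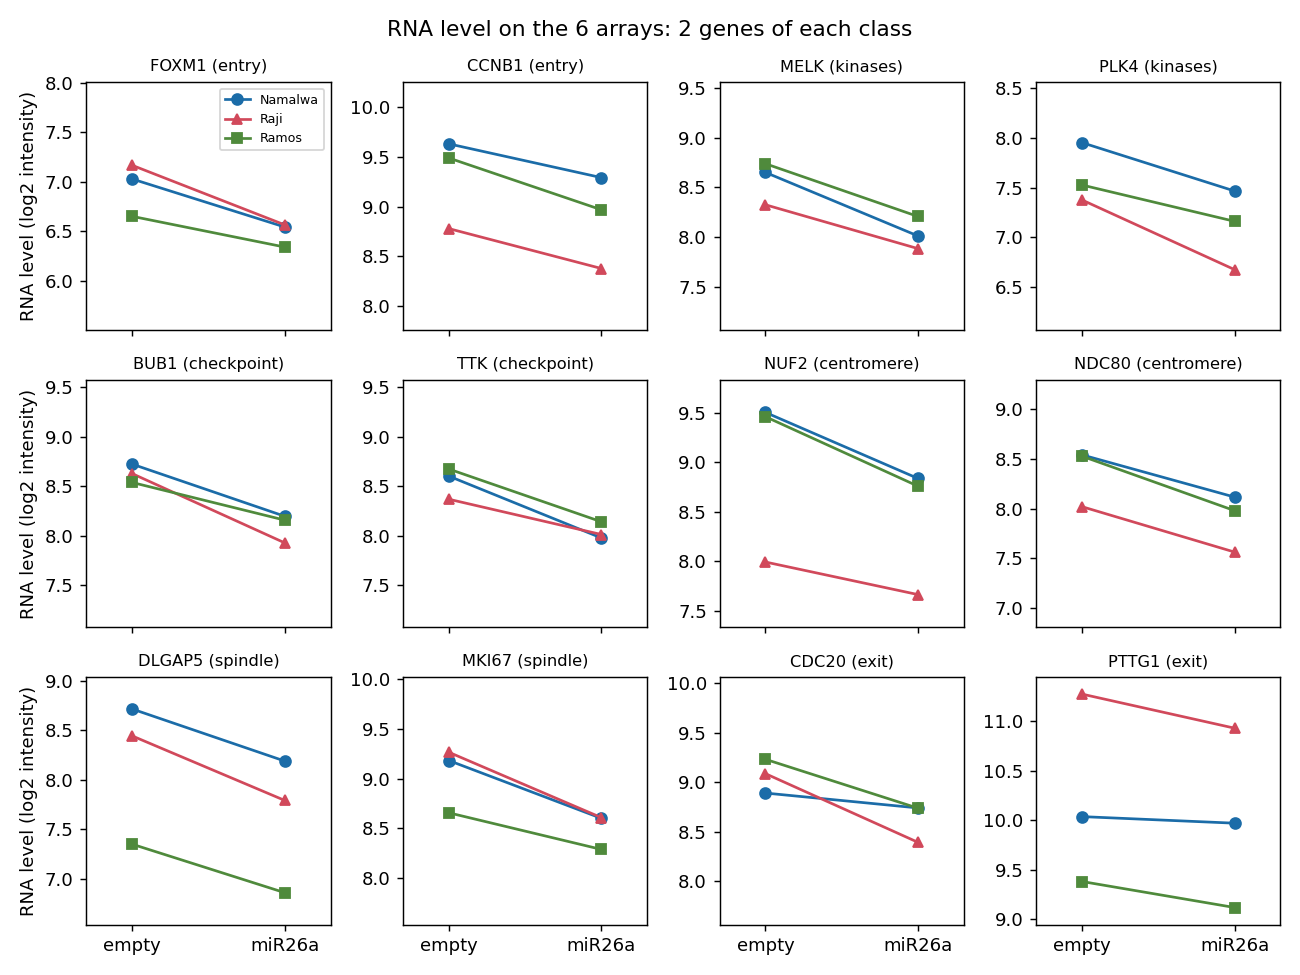
RNA level (log2) on the 6 arrays for 2 genes of each class; each point is 1 array, a line joins the empty and the miR26a array of 1 cell line, and the vertical axes differ between panels. FOXM1, MELK, BUB1, TTK, MKI67 and CDC20 have all 3 miR26a points below the 3 empty points; in NUF2, DLGAP5 and PTTG1 the cell lines lie farther apart than the groups.

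Among the members, the largest difference within a line was in Raji for 18 genes, in Ramos for 13 and in Namalwa for 7. Those 7 include CENPF (-0.64), MELK (-0.64) and TTK (-0.62). The Namalwa empty array with the high ACTB difference enters every Namalwa change, large or small, and its part was not tested. Other probe sets gave a second reading of 19 members. Of 33 such probe sets above the level minimum, 29 had a mean change below 0 and 20 were lower in all 3 lines, with a median of -0.28 and a range of -0.62 to 0.19. The 4 with a mean change above 0 belonged to BUB3 (0.032 and 0.057, beside -0.16 and -0.15 in its remaining ones), CDC25C (0.19) and NUSAP1 (0.036). By promoter motif the medians lay close together or were nearer to 0 with the motif. Members with the element had a median of -0.36 and the 9 matched members without it -0.39. Those with the box had a median of -0.36 and the 5 without it -0.48.

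The rest of the mitotic machinery was read from 6 further lists of 102 genes, of which 95 were tested. Of these, 62 were lower in all 3 lines and 2 higher in all 3, against 19.6% of all genes lower and 1871 of 12012 higher. At an unadjusted p under 0.05 by limma, 44 were lower and 1 higher, against 7.33% and 5.56% of all genes. After adjustment 0 of the 95 passed. Their median change was -0.23. Inner centromere proteins, which build on CENPA chromatin, had a median of -0.33, and 13 of 15 were lower in all 3 lines, with CENPI at -0.52 and CENPK at -0.48. The other outer kinetochore and checkpoint genes had a median of -0.34, and 14 of 20 were lower in all 3 lines, with SGO1, the protector of centromeric cohesion, at -0.57 and SKA3, a microtubule-coupling protein, at -0.52. The SGO1 value rested on the Namalwa pair: it was -1.26 there, -0.11 in Raji and -0.33 in Ramos, with a mean of -0.22 without Namalwa. The passenger complex and cytokinesis genes had a median of -0.31, and 7 of 9 were lower in all 3 lines, with CEP55, the midbody protein, at -0.55 and the kinesin KIF14 at -0.48.

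Condensin and cohesin, the rings that compact and hold chromatids, had a median of -0.22. Of the 18 genes 15 were lower in all 3 lines, and the largest changes were in the condensin subunits NCAPG2 at -0.61 and NCAPH at -0.59, both with an adjusted p of 0.0730 by limma. In the entry control and anaphase-promoting complex lists the medians were closer to that of all genes. Over all genes tested the median was -0.01, and 19.6% were lower in all 3 lines. The entry control list, with WEE1-type kinases, Greatwall (MASTL) and the MuvB complex, had a median of -0.15, and 9 of 17 were lower in all 3 lines, with CDC25A at -0.45 and MASTL at -0.42. Subunits and regulators of the anaphase-promoting complex had a median of -0.07. Of these 16 genes 4 were lower in all 3 lines, with FBXO5, the EMI1 inhibitor of the complex, at -0.42 and its subunit ANAPC15 at -0.35. The differences between lists were not tested.

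**Figure D4:**
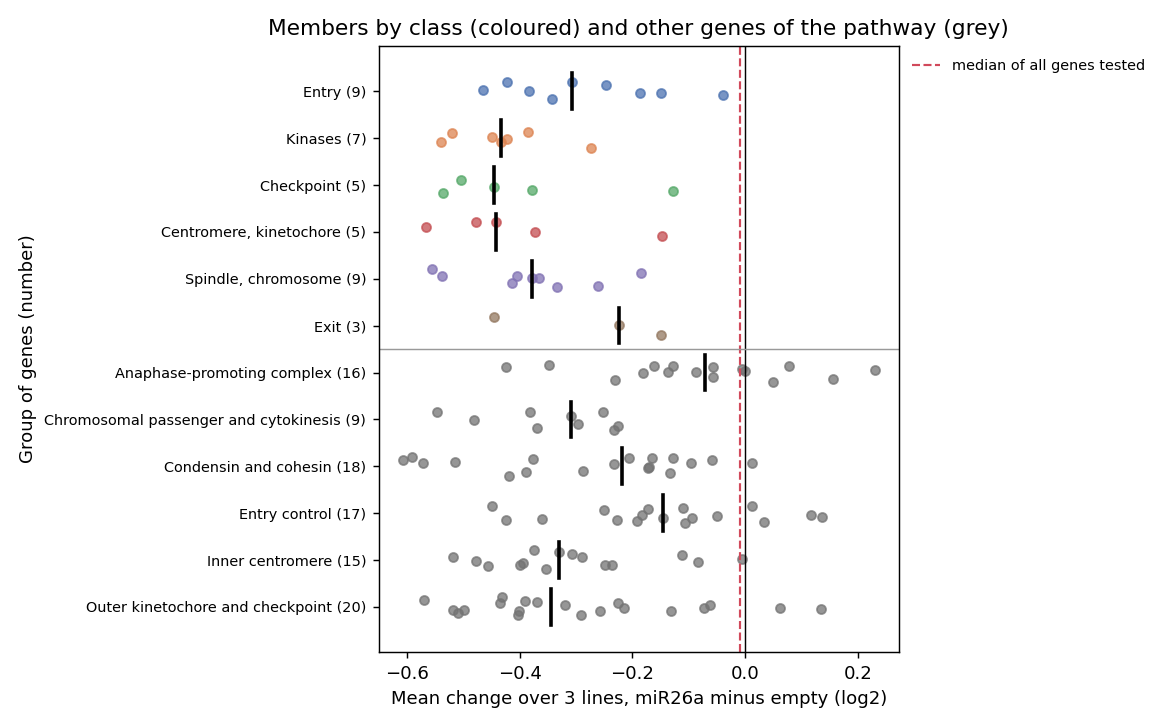
Mean change over the 3 lines (log2, miR26a minus empty) of each member by class (coloured points) and of each tested gene of the 6 other lists (grey points), with the number of genes in brackets, the median of each group as a black bar and the median of all genes tested as a dashed line. The class medians run from -0.44 for the checkpoint and centromere genes to -0.22 for exit, and the anaphase-promoting complex lies nearest to the dashed line at -0.07.

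The lines themselves differed in many of these genes, in shares close to those of the array as a whole. With both arrays of a line together and the group as a term, limma called 16 members between Namalwa and Raji (12 higher and 4 lower in Namalwa) at an adjusted p under 0.05. That share stands beside 46.1% of all genes (23.4% higher, 22.8% lower). Between Raji and Ramos it called 17 members (6 higher and 11 lower in Raji), beside 50.5% of all genes (26.1% higher, 24.4% lower). Between Namalwa and Ramos it called 4 members, all higher in Namalwa, beside 14.7% of all genes (8.09% higher, 6.57% lower). The 3 comparisons share arrays. Over the 3 comparisons 23 members were called at least once and 15 never. Of the calls, 11, 10 and 2 held without each array in turn. Between Raji and Ramos 10 members were called without the Ramos empty array, and between Namalwa and Ramos 2 were called when any 1 of the 4 arrays of those lines was left out.

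Several genes separated Raji from both other lines. NUF2 had a mean level of 7.83 in Raji, 9.17 in Namalwa and 9.11 in Ramos, whose values above show no overlap of Raji with the others. Namalwa was higher than Raji by 1.34 (SE 0.14), a 2.53-fold difference, with an adjusted p of 4.01e-05 by limma. CKS1B stood at 10.65 (Namalwa), 9.56 (Raji) and 10.70 (Ramos). TOP2A stood at 10.88, 9.78 and 10.72 in the same order of lines, and PBK at 9.65, 8.49 and 9.16. CCNB1 and PRC1 were also lower in Raji than in both others. The opposite held for HMMR, at 10.01, 11.11 and 10.06, and for CDC25B, which was higher in Raji than in Namalwa by 0.87. These calls held without each array in turn.

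PTTG1 and DLGAP5 followed other orders of the lines. PTTG1 had mean levels of 10.00 (Namalwa), 11.10 (Raji) and 9.25 (Ramos), and all 3 pairs were called. Raji was above Ramos by 1.85 (SE 0.13), a 3.61-fold difference and the largest among the members, with an adjusted p of 2.49e-06 by limma. The uncertainty of its probe set named above applies to this difference too. DLGAP5 had mean levels of 8.45, 8.12 and 7.10. Namalwa was above Ramos by 1.35 (SE 0.12), a 2.54-fold difference with an adjusted p of 1.62e-04 by limma, and Namalwa and Raji did not pass the threshold. AURKA was lower in Namalwa than in Raji by 0.36 (adjusted p = 0.0381 by limma), but it lost the call when any 1 of the 6 arrays was left out, and with only probe sets of the plain type the difference was 0.11 the other way. The plain probe set of AURKA lay near the level minimum, at a mean of 4.90. Its other one was lower in Namalwa than in Raji on the empty (8.16, 8.38) and miR26a arrays (7.84, 8.06). Of the 5 checkpoint genes 2 were called for Raji minus Ramos, MAD2L1 (-0.41, adjusted p = 0.0305 by limma) and BUB1B (-0.36, 0.0387). Neither of these calls held without each array in turn. No checkpoint gene was called for either pair that includes Namalwa. For Namalwa minus Raji, MAD2L1 (0.34, adjusted p = 0.0694 by limma) and BUB1B (0.31, 0.0734) came closest. The difference between classes was not tested. Between Namalwa and Raji, where 46.1% of all genes were called, 4 of the 5 centromere and kinetochore genes were called, all of them higher in Namalwa. Of these, CENPE lost the call without either Namalwa array or the Raji miR26a array, and CENPF without the Namalwa empty array.

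**Figure D5:**
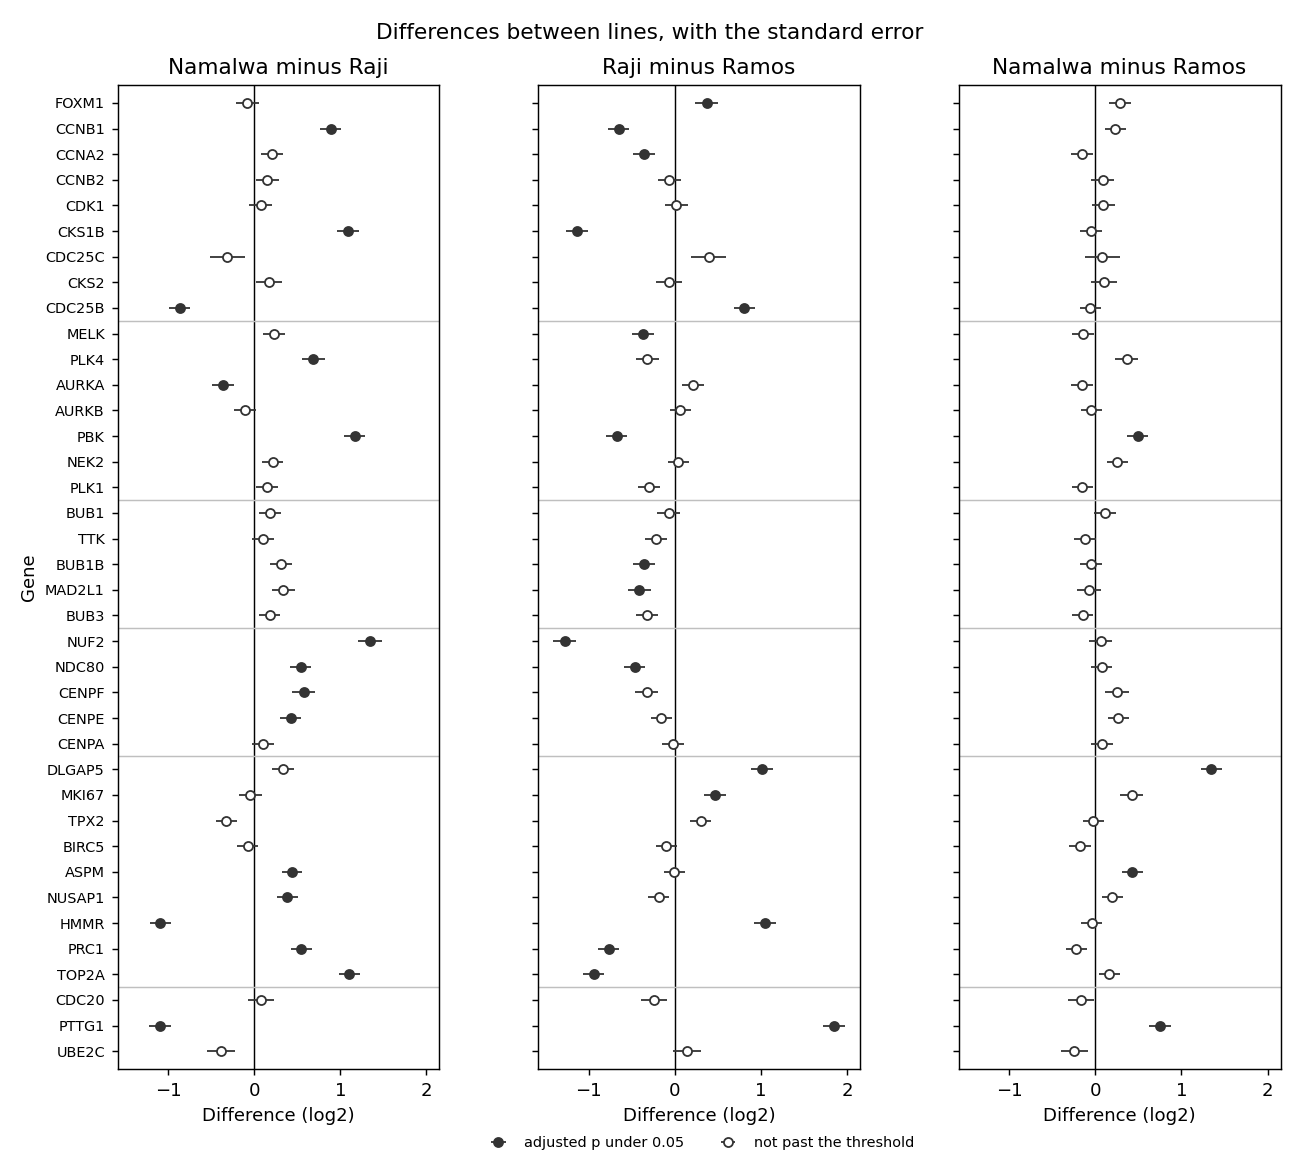
Difference in RNA level between lines (log2) for each of the 38 genes with its standard error, from the means of the 2 arrays per line; filled points passed an adjusted p of 0.05 by limma over all genes and open points did not. PTTG1 between Raji and Ramos lies farthest from 0 at 1.85, and most points of Namalwa minus Ramos lie close to 0.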

How the data were processed

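Biotin-labelled total RNA of 6 samples was run on Affymetrix U133 Plus arrays, per the labels' protocols. The authors deposited log2 intensities from RMA (background correction, quantile normalisation, probe summary). Per the labels' design text RMA was run in BRB Array Tools, and per the submitters' processing notes GCOS and RMA were used; versions are not given in the sources used here. The design text speaks of a filter on varying probe sets, but the table holds 54675 probe sets and was used whole. Controls made up 62 of these; 41091 had a single gene symbol, 1801 more than 1 and 11721 had no symbol. Symbols were updated through Entrez gene IDs with the RefSeq table of GRCh38.p14 (41037 probe sets). No gene was read from a probe set with several symbols.

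Each gene was represented by the probe set whose mean over the arrays was highest. Genes with a mean of at least 4.42, the median of the non-control probe sets, were tested (12012 of 19775). limma (3.58.1, R 4.3.3) was fitted to all genes, blocking on the cell line where miR26a was set against empty and keeping the group as a term between lines, with Benjamini-Hochberg adjustment over all genes (threshold 0.05). The line pairs the arrays: deviations from the group means correlated at 0.861 (Namalwa), 0.950 (Raji) and 0.917 (Ramos), and at most at 0.388 across lines. The fits were tested on simulated data. The number of arrays limits the precision, and no detection calls were used.

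All 38 genes are named. The values on all 6 arrays are given for the genes of each class with the largest mean change, for the gene with the largest difference of each pair of lines, and for some others chosen after their values were seen. Up to 2 genes of each further list, those with the largest mean change, are named. The members, lists and tests were chosen with earlier results of these data known. Alternatives tried were median centring, other level minimums, other rules for the probe set, an intensity trend with a robust prior, no block or a random block, the group left out of the fit, and leaving out each pair or array.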

Additional observations from a re-analysis of the deposited data

Results flagged for a closer look

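In 4 of the 38 genes the change with miR26a went in opposite directions in different lines. Each line had 1 array per group, so the difference between lines was not tested. CDC25C differed most: it was higher with miR26a by 0.26 log2 in Namalwa and had a change of -0.75 in Raji. UBE2C had a change of 0.22 in Namalwa and of -0.36 in Raji. CKS2 had a change of 0.022 in Namalwa and of -0.47 in Ramos. CDC25B had a change of 0.048 in Raji and of -0.11 in Ramos. In CDC25C, UBE2C and CKS2 the highest value was that of the Namalwa pair, whose empty array had an ACTB 3′ to 5′ difference of 3.58 against 1.80 to 1.98 elsewhere. Its part in these values was not tested.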

How the results depend on the processing

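Between the groups, 34 of 38 genes were lower in all 3 lines, against 19.6% of all genes. With the mean of all probe sets 31 of 38 were lower in all 3 lines, against 18.9% of all genes. With only probe sets of the plain type it was 23 of 27, against 18.8%. When a pair was left out, 34 to 37 were lower in both remaining lines, against 29.6% to 32.1% of all genes. The median change was -0.34 with the mean of all probe sets and -0.41 with only probe sets of the plain type (27 genes remained), and -0.39 to -0.37 without 1 pair. The 0 genes that passed after adjustment by limma became 50 (0.699%) with a level minimum at the 75th percentile, with MELK and DLGAP5 among them. With an intensity trend and robust prior they became 102 (0.849%). The latter held 8 members: MELK, BUB1, BUB1B, TTK, NDC80, NUF2, DLGAP5 and MKI67. Without 1 pair the count ran from 0 (without Namalwa) through 23 (without Ramos, 0.191% of all genes) to 203 (without Raji, 1.69%). Members lower at an unadjusted p under 0.05 by limma numbered 13 with no replicate block, beside 0.741% of all genes. With the block they numbered 30, beside 7.33%, and without 1 pair 22 to 31, beside 5.27% to 8.02%. Mean changes turned direction for CDC25C (0.017 with the mean of all probe sets, 0.092 without the Raji pair), BUB3 (0.057 with plain probe sets) and CKS2 (-0.24 to 0.0094 without 1 pair, the latter without Ramos). With only plain probe sets ASPM stood at -0.0060 and AURKA, read near the level minimum at 4.90, at -0.25. With the mean of all probe sets ASPM stood at -0.17, NUSAP1 at -0.16 and TOP2A at -0.28. By the same rule CCNB2 stood at -0.19, BUB1 at -0.33 and BUB3 at -0.063. For these and CDC25C that mean took in probe sets below the level minimum. Between lines, the members called with the group left out of the fit numbered 9 for Namalwa and Raji, beside 40.6% of all genes. They numbered 10 for Raji and Ramos, beside 45.1%, and 2 for Namalwa and Ramos, beside 9.98%. With a level minimum at the 75th percentile, which left 37 members, they numbered 20, 22 and 5 in the same order of pairs. The shares of all genes were then 59.0%, 60.8% and 18.9%. With an intensity trend and robust prior they numbered 21, 20 and 5, beside 47.2%, 51.2% and 16.5%. With plain probe sets, which left 27 members, the Raji and Ramos pair had 11 calls, beside 48.3% of all genes. The Namalwa and Ramos pair had 2 by that rule, beside 14.1%. AURKA in Namalwa minus Raji was then 0.11, from its probe set near the level minimum. Without 1 array the counts ran from 11 to 15, from 10 to 17 and from 2 to 5 in the same order of pairs. The cause of these moves was not tested, beyond the fewer genes or arrays that a setting leaves.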
